A study of Mus musculus with 3 samples.

Results

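Molecular chaperones help other proteins to fold, keep damaged ones from clumping and pass some on for destruction. HSP70 proteins grip short stretches of unfolded chains in an ATP-driven cycle that J proteins start and nucleotide exchange factors end, while HSP90, the CCT ring and the mitochondrial HSP60 chamber take clients at later steps. Cell stress switches on many of these genes through heat shock factor 1, which binds heat shock elements in their promoters, and the endoplasmic reticulum (ER) has its own set, switched on by the unfolded protein response. T cells that have been activated grow and divide quickly and make much protein, and chaperone genes are expressed strongly in such cells.

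The genes described here are those whose symbol names a heat shock protein (Hspa to Hspe, Hsp90, Hsph1), a J protein of the Dnaja, Dnajb or Dnajc series, a CCT subunit, a BAG protein, one of the disulfide isomerases Pdia3 to Pdia6, or heat shock factor Hsf1 or Hsf2. The rule found 93 genes among 17121 in the deposited table. Of these, 78 reached 1 CPM (read counts scaled to the size of the library) in at least 1 sample and are called kept members, against 11777 kept genes in all. The 15 others were all but silent and include 5 of the 6 cytosolic small heat shock proteins and Hspa1a. The members nearest to the limit were Hspa1a with 0.861 CPM at most on the outside and Dnajc28 with 2.1 CPM on the inside. By place of work, the kept members comprised 8 CCT subunits of 10 on the list, 10 of 10 mitochondrial members, 36 of 46 of the cytosol and nucleus, 18 of 19 of the ER, 2 heat shock factors, 2 of 4 of vesicles and endosomes, and 2 others.

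RNA was sequenced from wild-type mouse CD8+ T cells of spleen and lymph node in 3 groups of 1 sample each, after 3 days of culture. Young TCR cells came from mice of 6 weeks and were held with antibodies to CD3 and CD28 at 1 µg/ml, which trigger the T cell receptor and a co-stimulatory receptor. Young TRM cells, from mice of the same age, received these antibodies plus 20 ng/ml of IL-15 and 5 ng/ml of TGF-beta, a mix used to drive features of tissue-resident memory T cells, and aged TRM cells had the same treatment but came from mice of 18 months. All groups thus shared the antibodies, no unstimulated sample was analysed here, and the culture is a model of residence outside any tissue. The labels do not say how many mice gave cells to a sample.

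The samples held 39915663, 36021887 and 40385477 reads in the order young TCR, young TRM, aged TRM, which is used throughout. Each came as 2 numbered columns, treated as repeat measurements of 1 sample. Among the 77 or 78 members with at least 50 reads in a sample, the median member differed between its columns by 1.04-fold to 1.05-fold, and the highest differences were 1.34-fold and 1.84-fold for Hspa1b and 1.33-fold for Pdia5. With 1 sample per group no p-value can be given, and variation between mice or cultures is unknown. A gene was called where its log2 ratio of CPM + 1 was at least 1 in size and the 95% interval of its read ratio excluded 1. That interval covers counting error only, as do all intervals below. "Lower in all pairings" means that both columns of one sample lay below both columns of the other, and is a weaker description. The RNA fits the label: Cd8a stood at 747, 1822 and 1632 CPM, and the 5 T cell markers Cd3d, Cd3e, Cd3g, Cd8a and Cd8b1 summed to 2092, 3464 and 3214 CPM.

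Other cells were a small part of the RNA but differed between samples. The 10 listed B and plasma cell markers, none at 0 in any sample, summed to 93.2, 20.3 and 30.4 CPM. Pou2af1 was the largest part in young TCR (40.7, 2.58 and 4.53 CPM). Cd79b, which differed less (15.5, 12.9 and 11.7 CPM), was the largest in both TRM samples. Of the 9 kept markers, 8 (88.9%) were called lower in young TRM than in TCR cells, against 3.54% of all genes. In aged against young TRM 3 (33.3%) were called higher, against 2.21% of all genes. The log2 ratio was below 0 for all 9 in young TRM against young TCR and above 0 for 8 in aged against young TRM. Most kept chaperones below had these directions too (61.5% and 71.8%). The platelet genes Ppbp (6.22, 0.482 and 1.21 CPM) and Pf4 (2.79, 0.653 and 1.57 CPM) were also lowest in young TRM, whereas the red cell gene Hbb-bt was lowest in young TCR (0.74, 2.5 and 6.15 CPM), as were Hbb-bs and Hba-a1. The part of these cells in the chaperone values was not tested. In such bulk RNA, fewer cells of a type and less RNA per cell cannot be told apart.

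Promoter sequences were searched for the classical stress elements. RefSeq promoters (GRCm38.p6) were at hand for 76 of the 93 members, with 96 start sites, and the 250 bases before each start were searched on both strands. Members without one include Hsp90aa1, Hsp90ab1, Hspa8, Hspa9, Hsf1 and Cct4, so nothing is known here of their elements. A pair of inverted heat shock units, GAANNTTC or TTCNNGAA, stood in 18 of 96 member promoters (18.8%) and in 12.8% of all 32851 promoters. A run of 3 alternating units, the arrangement that heat shock factors bind best, was found in 4 member promoters (4.17%) and in 0.466% of all. These belong to Hspd1, Hspe1 and Dnajb6. The stretches searched for Hspd1 and Hspe1 overlap and share the run, and those of Dnajb6 overlap each other. The 4 are thus not separate sites, and the 2 shares are not counts of independent matches. The ER stress element, CCAAT, 9 bases of any kind and CCACG, stood in 37 promoters of the whole table (0.113%), 4 of them of members, and these 4 all belong to ER members (Hspa5, Hsp90b1, Pdia6, Dnajc3). A match is a description of letters and not evidence of a bound factor. Elements with other letters or farther from the start were not searched, so a gene without a match may still hold one.

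The sequences below belong to genes named in the results, 3 with heat shock units and 3 with ER stress elements. They do not stand for the called members. Of the members called lower in young TRM, Bag3, Pdia5 and Dnajc15 had neither element in the stretch searched. No promoter was at hand for Dnajc12. Capitals mark the matched element, all are written 5′ to 3′ on the gene's own strand, and positions are of GRCm38.p6. The Hspe1 start and 1 of 2 Hspd1 starts in the table point away from each other, with 215 bases between them (chr1:55087933-55088147), and the heat shock run printed for Hspe1 lies between these starts. The other Hspd1 start lies beyond the Hspe1 start, so that the genes overlap there, and the 250 bases before it hold no pair. The heat shock run printed for Hspe1 begins 89 bases before the Hspe1 start, spans 18 bases and overlaps an annotated exon of Hspd1. The Hsph1 pair begins 54 bases before a start and overlaps an exon of a Hsph1 transcript that begins farther out. The Hspa1b pair begins 104 bases before its start, and no annotated exon overlaps the 250 bases shown. The Hspa5 site overlaps an annotated exon of Hspa5.
Hspe1 site, chr1:55088053-55088082, + strand: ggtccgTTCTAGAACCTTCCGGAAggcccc
Hsph1 site, chr5:149636351-149636380, - strand: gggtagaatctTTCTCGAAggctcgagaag
Hspa1b promoter, chr17:34959239-34959488, - strand: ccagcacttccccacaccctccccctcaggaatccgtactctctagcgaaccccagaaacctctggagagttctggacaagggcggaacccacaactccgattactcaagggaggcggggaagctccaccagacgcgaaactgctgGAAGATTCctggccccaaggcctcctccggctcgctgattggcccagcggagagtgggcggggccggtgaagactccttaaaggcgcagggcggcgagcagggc
Hspa5 site, chr2:34772020-34772048, + strand: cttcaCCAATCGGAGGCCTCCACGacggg
Hsp90b1 site, chr10:86705528-86705556, - strand: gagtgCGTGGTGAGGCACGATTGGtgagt
Pdia6 site, chr12:17266486-17266514, + strand: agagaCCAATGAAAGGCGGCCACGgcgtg
The Hsp90b1 element is written here in reverse and is 1 of 2 in that promoter.

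The first comparison bears on the added cytokines, IL-15 and TGF-beta. Set against young TCR, young TRM cells held less RNA of several chaperones, and no member was called higher. The members called lower were 6 of 78 kept (7.69%): Pdia5, Bag3, Hspa1b, Dnajc12, Dnajc15 and Hspd1. Over all 11777 kept genes, 3.54% were called lower and 4.11% higher. The median log2 ratio of the kept members was -0.12, with quartiles of -0.43 and 0.10, against 0.01 with quartiles of -0.22 and 0.24 for all genes. A ratio below 0 was found in 48 of the 78 members (61.5%) and in 48.2% of all genes, and 42 members were lower and 20 higher in all pairings, where the shares of all genes were 39.5% and 38.9%. The difference was uneven across families: the 38 kept J proteins had a median of 0.05 with 17 below 0, and the 40 other members a median of -0.38 with 31 below 0 (77.5%).

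The comparison of aged with young TRM asks what age does under the same cytokines, and it uses the same young TRM library as the first, so the comparisons are not independent. Here 1 member, Bag3, was called higher and 0 lower (1.28% and 0% of the kept members), against 2.21% and 1.13% of all genes, so calls give no result about the members. Their median log2 ratio was 0.11, with quartiles of -0.04 and 0.26, against 0.00, with quartiles of -0.17 and 0.17. A ratio above 0 was found in 56 of 78 members (71.8%) and in 49.4% of all genes. Of the kept members, 45 were higher and 12 lower in all pairings, with 35.9% and 37.6% for all genes.

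**Figure D1:**
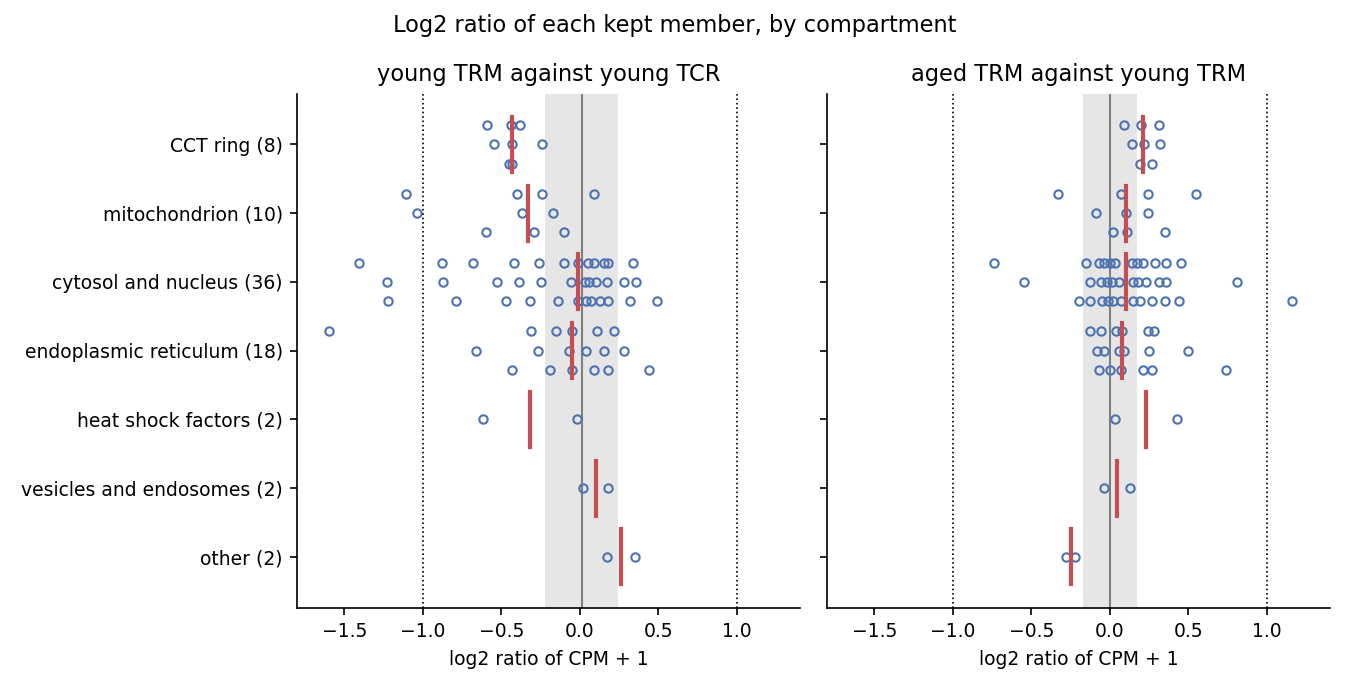
Log2 ratio of CPM + 1 for each kept member (circles, number in brackets), by compartment, in the 2 comparisons, which share the young TRM library; red bars are medians, the grey line and band the median and quartiles of all kept genes, and dotted lines the call limits at -1 and 1. The 8 CCT points lie together below 0 for young TRM against young TCR (from -0.59 to -0.24) and above 0 for aged against young TRM (0.09 to 0.32), while members of the cytosol and nucleus spread from -1.41 to 0.49 and from -0.74 to 1.16.

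The mitochondrial members included the most abundant called gene. Hspd1 (chr1:55077833-55088243) encodes HSP60, the barrel in which imported proteins fold. It was measured at 994 CPM in young TCR, 484 in young TRM and 709 in aged TRM, and the columns read 1006 and 999, then 478 and 484, then 698 and 715. The 3 samples did not overlap, with young TRM lowest and aged TRM between. Hspd1 was 2.05-fold lower in young TRM than in young TCR (interval 2.02 to 2.09, log2 ratio -1.04), just past the limit of a call, and 1.47-fold higher in aged than in young TRM (1.44 to 1.49), which is not a call.

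Hspe1 (chr1:55088148-55091317), its neighbour across the region between the starts, encodes HSP10, the lid of the HSP60 barrel. It read 296 and 274 CPM in young TCR, 165 and 203 in young TRM, and 188 and 211 in aged TRM. Young TRM lay below young TCR in every column, 1.52-fold (1.47 to 1.56), but the young and aged TRM columns overlapped. On the TPM scale, which also divides by transcript length, Hspd1 was at 844, 407 and 618 and Hspe1 at 763, 494 and 555. The ratio of Hspd1 to Hspe1 TPM was therefore 1.11, 0.824 and 1.11: Hspd1 was the higher of the pair in young TCR and aged TRM and the lower in young TRM.

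Dnajc15 (chr14:77826217-77874917), a J protein of the inner membrane, was the other called mitochondrial member. It stood at 99.8, 45.8 and 49.6 CPM, with columns of 104 and 97.2, 44 and 46.8, and 48.6 and 50.2. Both TRM samples were low: young TRM was 2.18-fold below young TCR (2.06 to 2.31), and the log2 ratio of aged to young TRM was 0.11. Hspa9, the HSP70 that pulls chains into the matrix, had a different profile, with 611, 472 and 602 CPM and thus nearly the young TCR level in aged TRM. Dnaja3, the J protein of Hspa9, was at 60.1, 50.7 and 60.0 CPM, and Dnajc11, of cristae organisation, at 85.4, 64.4 and 76.1. In all, 9 of 10 mitochondrial members had a log2 ratio below 0 for young TRM against young TCR (median -0.33) and 8 of 10 were lower in all pairings, with none higher. Of all genes, 48.2% lay below 0, and 39.5% were lower and 38.9% higher in all pairings. With age the median was 0.11, and 5 (50%) were higher and 2 (20%) lower in all pairings, the latter Dnajc19 and Dnajc28. The shares of all genes were 35.9% and 37.6%. The summed TPM of the mitochondrial members was 2529, 1522 and 1930.

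The CCT ring, which folds actin, tubulin and other proteins in the cytosol, differed between samples with little spread between subunits. Each of the 8 kept subunits was lowest in young TRM and highest in young TCR; young TRM was the lowest sample for 34.1% of all kept genes. In both comparisons all 8 were non-overlapping in all pairings, lower in young TRM than in TCR cells and higher in aged than in young TRM. Of all genes, 39.5% were lower in all pairings in the first comparison and 35.9% higher in the second. No subunit was called in either. The log2 ratio ran from -0.59 for Cct8 to -0.24 for Cct2 in the first comparison (median -0.44) and from 0.09 for Cct5 to 0.32 for Cct6a in the second (median 0.21).

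Cct8 read 525, 349 and 406 CPM, with columns of 548 and 509.8, 352 and 344, and 396 and 412, and was 1.5-fold lower in young TRM than in young TCR (1.47 to 1.54). Tcp1, the first subunit of the ring, read 703, 522 and 647 CPM and was 1.35-fold lower (1.32 to 1.37). Cct2 read 621, 527 and 583 CPM, and was 1.18-fold lower (1.16 to 1.2). These span the subunits in size of difference, and in each the aged TRM columns lay between those of the young samples. Cct6a was at 493, 336 and 419 CPM and Cct5 at 523, 386 and 409.8. Cct3, Cct4 and Cct7 lay at 287 to 361 CPM in young TRM.

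Each CCT ring holds 1 copy of each subunit type, and on the TPM scale the levels of the subunits can be set side by side. The lowest, median and highest of the 8 were 394, 458 and 617 TPM in young TCR, 288, 329 and 519.7 in young TRM, and 341, 407 and 594 in aged TRM. The highest was 1.56, 1.81 and 1.74 times the lowest, and it was Cct2 in every sample. Summed TPM was 3866, 2859 and 3427. Cct6b, a form typical of testis, and Cct8l1 were under 1 CPM in every sample.

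**Figure D2:**
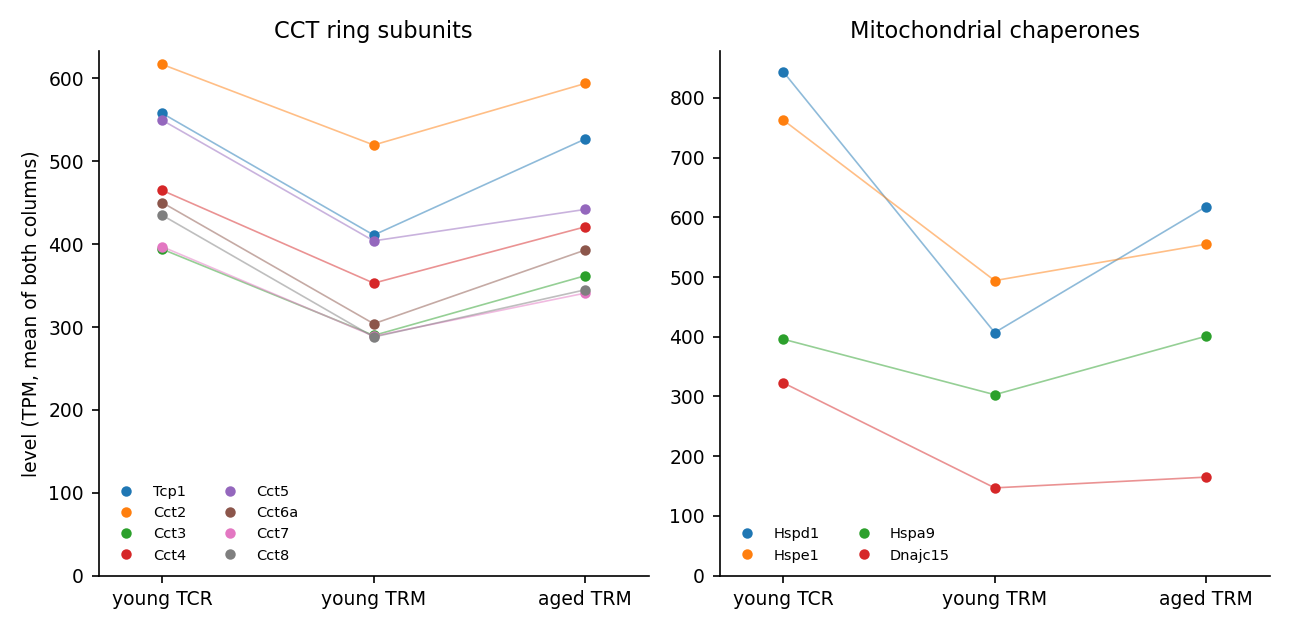
Levels in TPM of the 8 kept CCT subunits (left) and of 4 mitochondrial chaperones (right) in the 3 samples; each point is the mean of the numbered columns of 1 sample, and lines join the points of a gene. Young TRM lies lowest for every gene drawn, and Hspd1 passes from above Hspe1 in young TCR (844 against 763) to below it in young TRM (407 against 494).

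HSP90 of the cytosol, which finishes clients such as kinases and steroid receptors, was abundant in all samples. Hsp90aa1, the stress-inducible form, read 1634 and 1622 CPM in young TCR, 945 and 917 in young TRM, and 1107 and 1193 in aged TRM. Young TRM was 1.73-fold below young TCR (1.71 to 1.75), short of a call, and aged TRM lay between. Hsp90ab1, the constitutive form, was at 3804, 3045 and 3372 CPM, 1.25-fold lower in young TRM (1.24 to 1.26). The ratio of Hsp90ab1 to Hsp90aa1 TPM was 2.69, 3.71 and 3.33, so the inducible form was a smaller share of the pair in both TRM samples. Their summed TPM was 4123, 3030 and 3556.

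Among the cytosolic HSP70 proteins and their HSP110 relatives, the constitutive form was nearly level. Hspa8, the HSP70 present in all cells, read 3769, 3863 and 3750 CPM, with log2 ratios of 0.04 and -0.04. Hsph1, an HSP110 that lets HSP70 exchange its nucleotide and whose promoter site is printed above, read 253, 137 and 186 CPM; its columns were 259.8 and 252, 138 and 136, and 184 and 187. It was 1.85-fold lower in young TRM than in TCR cells (1.79 to 1.91) and 1.36-fold higher in aged than in young TRM (1.31 to 1.41), with no overlap and no call. Hspa4, another HSP110, had the same order (388, 297 and 364 CPM), while Hspa4l did not (63.7, 71.8 and 81.5 CPM).

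Hspa1b (chr17:34956429-34959238), the strictly inducible HSP70, was expressed at the edge of detection in all samples. It had 162, 40 and 71 reads, or 4.0, 1.14 and 1.75 CPM, with columns of 3.44 and 4.62, 1.32 and 0.974, and 1.23 and 2.25. Young TRM was 3.52-fold lower than young TCR (2.48 to 5.11), a call that is lost with the first numbered column alone (log2 ratio -0.93) and with a pseudocount of 5 CPM (-0.55). The young and aged TRM columns overlapped. Hspa1a, a near-identical neighbouring copy, had 29, 12 and 35 reads, and the sources used here do not give how reads that fit both copies were counted, so the split between the copies is uncertain. On the TPM scale Hspa8 exceeded Hspa1b 1262-fold, 4496-fold and 2875-fold. The median log2 ratio of the 8 kept HSP70 and HSP110 members was -0.32 in the first comparison and 0.20 in the second.

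**Figure D3:**
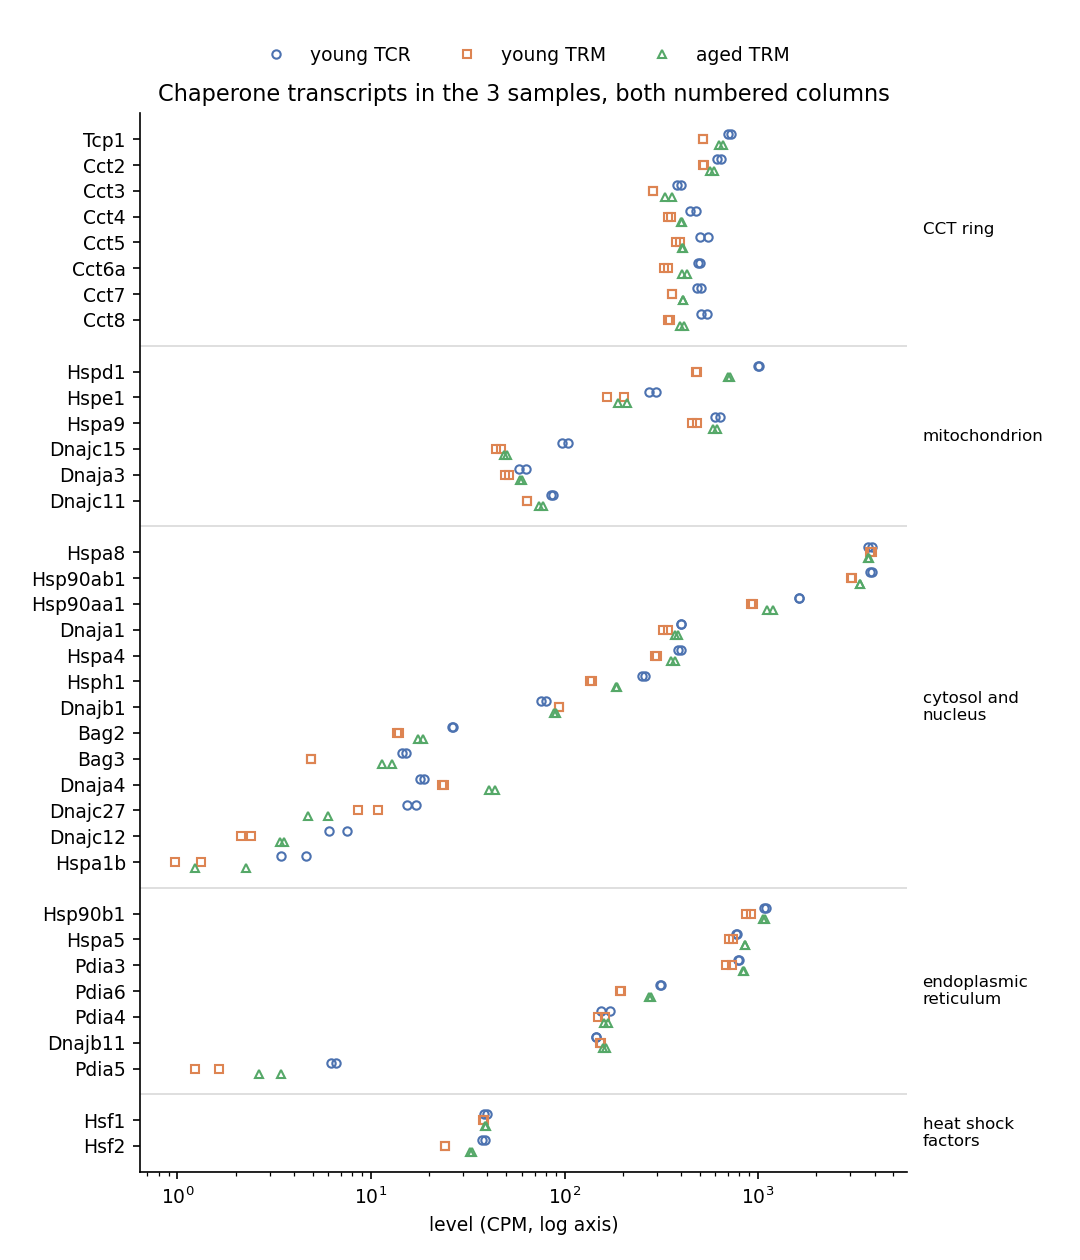
Levels in CPM (log axis) of kept members named in the text, by compartment; each sample has 2 points, its numbered columns. Bag3 is near 14.7, 4.91 and 12.2 CPM in young TCR, young TRM and aged TRM, whereas the columns of Hspa8 lie between 3720 and 3887 CPM.

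BAG proteins bind HSP70 and release its nucleotide, and Bag3 steers HSP70 clients to autophagy. Bag3 (chr7:128523583-128546981) read 15.2 and 14.5 CPM in young TCR, 4.92 and 4.87 in young TRM, and 11.4 and 12.8 in aged TRM. Young TRM was thus low, and aged TRM lay closer to young TCR than to young TRM. Bag3 fell 3-fold in young TRM against young TCR (2.53 to 3.57, log2 ratio -1.41) and rose 2.48-fold in aged against young TRM (2.08 to 2.97, log2 ratio 1.16), the highest age ratio among the kept members. With a pseudocount of 5 CPM the log2 ratios were -0.99 and 0.79, both short of a call.

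Bag2, which slows the ubiquitin ligase that tags HSP70 clients, was at 26.2, 13.9 and 18 CPM, 1.89-fold lower in young TRM than in young TCR (1.69 to 2.11). It was 1.3-fold higher in aged than in young TRM (1.16 to 1.46). Its columns did not overlap between samples. The other members of this group differed less. Bag1 read 122, 121 and 133 CPM, Bag4 38.6, 35.8 and 35.4, Bag5 30.6, 33.5 and 30.6, and Bag6, which holds tail-anchored membrane proteins, 201, 205 and 206. Hspbp1, an exchange factor outside the BAG family, was at 40.1, 29.7 and 35.9 CPM.

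J proteins start the HSP70 cycle and choose its clients, and the 18 kept in the cytosol and nucleus had a median log2 ratio of 0.06 in the first comparison and 0.01 in the second. Dnajc12, a J protein of aromatic amino acid hydroxylases, was the exception called lower in young TRM, at 6.71, 2.3 and 3.49 CPM, with columns of 7.48 and 6.06, 2.14 and 2.41, and 3.38 and 3.57. It fell 2.92-fold (2.27 to 3.79); with a pseudocount of 5 CPM its log2 ratio was -0.68. Dnajb1, the inducible HSP40 that works with Hspa1b and Hspa8, was at 77.3, 94.2 and 90.1 CPM, above young TCR in all pairings for young TRM, unlike Hsp90aa1, Hsph1 and Hspa1b. Dnaja1 was at 397, 334 and 381 CPM. Dnajb6, whose promoter holds a triple of heat shock units, was at 264, 253 and 286 CPM.

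A pair of J proteins had the widest age ratios of their family. Dnaja4 read 18.2, 23.6 and 42.2 CPM, with columns of 18.7 and 17.9, 23.9 and 23.2, and 43.5 and 40.6, and was 1.79-fold higher in aged than in young TRM (1.64 to 1.94, log2 ratio 0.81). It was highest in aged TRM with no overlap. Dnajc27, a Rab-like protein with a J domain, read 16.1, 9.65 and 5.39 CPM, with columns of 15.4 and 17, 10.9 and 8.56, and 4.71 and 6.02, and was lowest in aged TRM (log2 ratio -0.74). It was called lower with age with the first numbered column alone (log2 ratio -1.06), and not otherwise.

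The summed TPM of the cytosolic and nuclear members was 10263, 9140 and 9894. Of the 36 kept, 19 (52.8%) had a log2 ratio below 0 in the first comparison (median -0.01), against 48.2% of all genes. Called lower were 3 (8.33%), against 3.54% of all genes. In all pairings 16 (44.4%) were lower and 12 (33.3%) higher, against 39.5% and 38.9% of all genes. In the second comparison 24 were above 0 (median 0.11), with 18 (50%) higher and 8 (22.2%) lower in all pairings, against 35.9% and 37.6% of all genes. Of the small heat shock proteins, holdases that keep unfolded chains soluble, only Hspb6 was kept among those of the cytosol, at 4.56, 6.84 and 6.15 CPM.

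**Figure D4:**
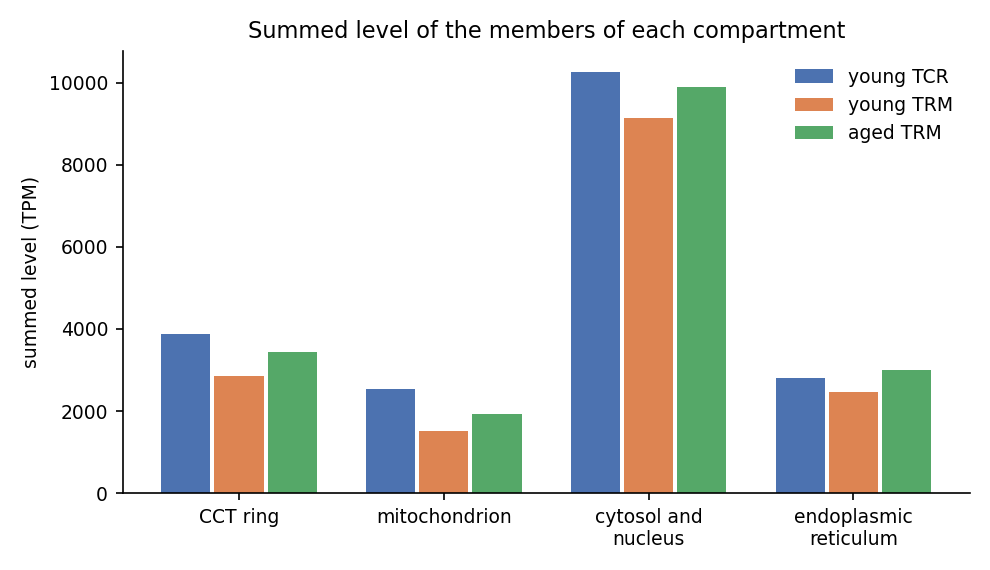
Summed level in TPM of all members of each of 4 compartments in the 3 samples (bars, 1 sample each, no error bar). Young TRM is lowest in each compartment; the mitochondrial sum is 2529, 1522 and 1930 TPM and that of the cytosol and nucleus 10263, 9140 and 9894 TPM.

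In the ER the disulfide isomerases, which make and reshuffle disulfide bonds, differed most. Pdia5 (chr16:35397308-35490919) had the lowest ratio of young TRM to young TCR among the kept members. It had 257, 50 and 124 reads, or 6.34, 1.42 and 3.05 CPM, with columns of 6.58 and 6.21, 1.64 and 1.23, and 2.65 and 3.43. It fell 4.47-fold in young TRM (3.29 to 6.18, log2 ratio -1.60), without overlap. Aged TRM was 2.15-fold above young TRM (1.54 to 3.05), but its log2 ratio with the pseudocount, 0.74, was not a call. With a pseudocount of 5 CPM the first ratio was -0.82.

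Pdia6, at a higher level and with an ER stress element in its promoter (printed above), had the same order. It read 314 and 310.1 CPM in young TCR, 195 and 194 in young TRM, and 274 and 279 in aged TRM. Young TRM was 1.58-fold below young TCR (1.54 to 1.63) and aged TRM 1.42-fold above young TRM (1.38 to 1.46), both without overlap of columns and without a call. Pdia3, the isomerase that works with calnexin and calreticulin, was at 786, 711 and 845 CPM, and Pdia4 at 162, 156 and 165. The median log2 ratio of the 4 isomerases was -0.40 in the first comparison and 0.38 in the second.

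The large ER chaperones differed less. Hspa5, or BiP, the HSP70 of the ER lumen and a standard readout of the unfolded protein response, was at 764, 727 and 858 CPM, with log2 ratios of -0.07 and 0.24. Hsp90b1, or GRP94, was at 1076, 892 and 1079 CPM, with -0.27 and 0.27. For both the aged TRM columns lay above those of young TRM. The members with an ER stress element were not alike: in young TRM against young TCR the log2 ratio was -0.66 for Pdia6, -0.27 for Hsp90b1, -0.19 for Dnajc3 and -0.07 for Hspa5.

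The 11 kept ER J proteins had medians of 0.09 and 0.04. Dnajb9, which holds BiP on the stress sensor IRE1 and is itself induced by the unfolded protein response, was higher in young TRM in all pairings, at 12.2, 16.8 and 15.3 CPM, while Dnajc1, a ribosome-binding partner of BiP, was lower, at 70.2, 52 and 63.3 CPM. Dnajb11 was at 145, 154 and 162 CPM. Over the 18 kept ER members the median was -0.05 in the first comparison, with 9 (50%) lower and 6 (33.3%) higher in all pairings. The shares of all genes were 39.5% and 38.9%. In the second comparison the median was 0.07, with 11 (61.1%) higher and 1 (5.56%) lower, against 35.9% and 37.6% of all genes. The summed TPM of the ER members was 2804, 2475 and 2997, the aged TRM value being the highest.

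The heat shock factors differed from each other. Hsf1, the main factor of the response, whose activity is set on the protein rather than by its RNA level, read 38.7, 38.3 and 39.1 CPM, and its columns overlapped between young TRM and young TCR. Hsf2, a relative that acts with it and in development, read 37.9, 24.2 and 33 CPM, with columns of 37.5 and 38.9, 24.1 and 24.1, and 32.6 and 33.2. Hsf2 was 1.56-fold lower in young TRM than in TCR cells (1.44 to 1.7) and 1.36-fold higher in aged than in young TRM (1.25 to 1.49), with no call. The members of vesicles and endosomes, Dnajc5 of vesicle fusion (169, 191 and 186 CPM) and Dnajc13 of endosome sorting (105, 107 and 118 CPM), were not lower in young TRM than in TCR cells. Neither were Hspb11, a transport protein of cilia (12.4, 14.1 and 12 CPM), and Hspbap1 (10.7, 13.9 and 11.2 CPM).

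Partner genes outside the symbol rule were given as 5 lists. The 17 co-chaperones of HSP90 and HSP70 had a median log2 ratio of -0.30 in young TRM against young TCR. Of these 15 (88.2%) lay below 0 and 1 (5.88%) was called lower, against 48.2% and 3.54% of all genes. The called gene was Fkbp5, an HSP90-binding immunophilin (227, 109.9 and 149.8 CPM). With age the co-chaperone median was 0.15 with 15 (88.2%) above 0, against 49.4% of all genes. The 23 genes of mitochondrial import, folding and quality control had a median of -0.33 with 19 (82.6%) below 0 and none called. Their median with age was 0.16. Tomm40, the pore of the outer membrane, was at 89.2, 55.2 and 75 CPM. The prefoldin and CCT partner list, 12 genes, had medians of -0.13 and 0.11, and the 26 listed genes of ER folding and the unfolded protein response -0.13 and 0.13, with none called in either list. Eif2ak3, the ER stress kinase PERK, was at 64.4, 38.4 and 49.7 CPM.

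Heat shock factor targets and regulators outside these families did not share one direction. The 7 kept of 9 had medians of 0.10 and 0.00. Hmox1, heme oxygenase, was called lower in young TRM than in TCR cells (16, 6.5 and 12.5 CPM), and Hsf4, a heat shock factor of the lens, was called higher (2.49, 6.1 and 4.06 CPM).

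Set against young TCR, aged TRM differs in both age and cytokines, which cannot be told apart there. The values are that Dnaja4 had a log2 ratio of 1.17 and Dnajc27 of -1.42, and that the median over the kept members was -0.03. Of the 78, 43 (55.1%) were lowest in young TRM, 10 (12.8%) in aged TRM and 25 (32.1%) in young TCR, against 34.1%, 26.6% and 39.3% of all kept genes.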

How the data were processed

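RNA was sequenced from 3 samples, 1 per group. Per the labels' protocols, total RNA from a column kit went into standard Illumina libraries run on a HiSeq, and the submitters' processing notes name Bowtie, without a version, and GRCm38 (mm10). The sources used here do not give the counting program or the annotation or how reads that fit several genes were handled. The deposited table held, per the file headers, estimated counts (named read counts, not always whole), TPM and FPKM for each gene and numbered column, and counts rescaled by the authors, a signal whose scaling is not stated. FPKM and the rescaled signal were not used. TPM, which the authors divided by length, served to compare genes.

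Estimated counts were rounded and summed over the 2 columns of a sample, which the labels do not explain; if they were separate cultures, their spread would be biological. Sums were scaled by TMM (edgeR 4.0.16 in R 4.3.3; factors 1.02, 0.978 and 1.01) and turned into CPM and log2 ratios with a pseudocount of 1 CPM (Python 3.11.15, numpy 2.4.6, pandas 2.3.3). Such ratios understate the difference of low genes. Genes under 1 CPM in all 3 samples were left out. Intervals of ratios are 95% Clopper-Pearson intervals of the split of reads (scipy 1.17.1). These intervals cover counting error only. They treat reads as independent molecules, which reads are not, so they may be too narrow even for that error. No test across samples is possible with 1 sample per group.

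The members, lists and rules were chosen with earlier results of these data known. Members named are those called, the 4 with most TPM and the 3 with the largest ratios per compartment and comparison, and a set of well-known chaperones; Dnaja3, Dnajc11, Hspa4, Hspa4l, Dnajc3, Dnajb11, Hspb6, Hspbp1, Hspa1a and Dnajc19 were added after their values were seen. Of related lists, called genes and some of those with the largest ratios are named. Positions are of GRCm38.p6. The 7 alternatives were scaling by totals only, a pseudocount of 5 CPM, a minimum of 10 CPM, no minimum, the deposited TPM, and each numbered column alone. Marker lists for CD4 T, NK, myeloid, red and stromal cells summed to 30.6, 54 and 29.6, to 219, 106 and 74.7, to 17.1, 37 and 23.1, to 9.84, 4.43 and 10.9, and to 79.2, 72.3 and 55.8 CPM in the order used in the report. A sum can hide its parts: Eomes made up most of the NK sum (217, 93.5 and 65.1 CPM), and the other 4 NK markers (Ncr1, Klrb1c, Tyrobp, Fcer1g) were called higher in young TRM than in TCR cells. In the red cell and platelet list the globin genes were lowest in young TCR and Ppbp and Pf4 in young TRM. The CD4 sum was highest in young TRM through Foxp3 (1.95, 33.6 and 3.71 CPM). Cd4 was nearly level (10.5, 12.4 and 11.6 CPM) and Zbtb7b was lowest in young TRM (18.1, 8.03 and 14.3 CPM). Mpeg1 made up most of the myeloid sum in both TRM samples (4.22, 28.7 and 15.4 CPM). Pecam1 made up most of the stromal sum (76.5, 70.7 and 53.5 CPM).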

Additional observations from a re-analysis of the deposited data

How the results depend on the processing

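The median log2 ratio of the kept members kept its sign under all 7 alternatives, from -0.17 to -0.10 for young TRM against young TCR and from 0.09 to 0.17 for aged against young TRM. No value changed sign with a call. Counts of calls depended on how low genes are treated. With a pseudocount of 5 CPM, the members called were 2 (young TRM against young TCR, Dnajc15 and Hspd1) and 0 (aged against young TRM), and all genes called were 486 and 149. With a minimum of 10 CPM, 3 of 65 members were called in the first comparison, against 607 of 9209 genes. In the second, 1 member was called, against 227 genes. With the first numbered column alone, 2 of 78 members were called in the second, against 421 of 11808 genes. Under a pseudocount of 5 CPM, 5 calls of named members were lost, those of Bag3 in both comparisons and of Dnajc12, Hspa1b and Pdia5 in the first. No paired analysis was possible because each group has 1 sample and the labels give no replicate numbers. The chief limit is the single sample per group, and the spread between mice is unknown. The columns of the kept CCT subunits did not overlap in either comparison, but age ratios were small. For Cct5 the age ratio was 1.06-fold, with columns of 393 and 377 CPM in young TRM and 410.4 and 406 in aged TRM. Its young TCR columns, outside that comparison, differed by more than this ratio (552 and 503 CPM). Hspa1b, with 40 reads in young TRM, Pdia5, with 50, and Hspa1a, with 12, are limited by depth as well.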
